A study of Mus musculus with 3 samples.

Results

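The mouse histone genes were examined as a group for peaks of MYC and of Flag-tagged POH1 in pancreatic cancer cells. They were taken by name from the RefSeq table of GRCm38.p6: every protein-coding gene called Hist1 to Hist4 or H1f, H2ac, H2bc, H3c or H4c, together with the genes of the variants H2A.X, H2A.Z and macroH2A and the genes H3f3a and H3f3b. That gave 77 of 21887 protein-coding genes. A gene was counted as having a peak when a peak summit lay within 1 kb of either of its ends. By position 54 genes were in the cluster on chromosome 13, 10 in the cluster on chromosome 3 and 2 in the small cluster on chromosome 11, and 11 were lone genes elsewhere.

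Core histones H2A, H2B, H3 and H4 form the nucleosome, and linker histones H1 bind the DNA between nucleosomes. Most core histone genes are small, lie in clusters, are transcribed in S phase and make messages that end in a stem-loop in place of a poly(A) tail. NPAT gathers with them in nuclear histone locus bodies, and many H2A and H2B genes are read in opposite directions from a shared promoter region. The lone variant genes are mostly expressed throughout the cell cycle. MYC is a transcription factor that binds with MAX to E-boxes and is found at many active promoters.

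The cells were Pan02, a mouse pancreatic cancer line. Binding was mapped by CUT&Tag: a transposase is tethered to the antibody-bound protein and inserts sequencing adapters into nearby DNA. The 3 libraries were MYC in cells stably expressing POH1-Flag, Flag in those same POH1-Flag cells, and MYC in cells with the empty vector. POH1 is the product of Psmd14, a proteasome subunit that removes ubiquitin, and the series title presents it as a regulator of MYC. The promoter of the construct, its level and the clonality of either line are not stated in the labels. There was 1 library per group, so differences have no replicate check. Intervals of single ratios cover counting error only. Those of shares and medians are taken over genes, and none covers differences between replicates. Library totals are not given in these sources. The background read density recovered from the lists was 4.09 reads per kb for MYC in POH1-Flag cells, 4.06 for Flag in POH1-Flag cells and 3.86 for MYC in vector cells, and the lists held 22647 peaks for MYC in POH1-Flag cells, 2936 for Flag and 12175 for MYC in vector cells.

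Promoter windows of the genes come first. RefSeq promoters of GRCm38.p6, from 250 bases before the start to 50 after it, were found for 71 of the 77 histone genes (72 promoters, since H2bc6 has 2); H2bc21, H3c1, H2bc4, H2ax, H4c14 and H3c7 had no entry. Those printed were chosen for the results below. H3c14 lies beside the highest MYC pileup in POH1-Flag cells, H2bc14 and H4c11 are cluster genes with high ratios between the lines, H2bc23 has a duplicate, H1f1 has no peak, and H2az1 and H3f3a are lone variants with high ratios. Capitals mark the E-box CACGTG, the CCAAT box CCAAT, the TATA box TATAAA and the octamer ATTTGCAT, each on either strand.
H3c14, chr3:96246435-96246734, plus strand: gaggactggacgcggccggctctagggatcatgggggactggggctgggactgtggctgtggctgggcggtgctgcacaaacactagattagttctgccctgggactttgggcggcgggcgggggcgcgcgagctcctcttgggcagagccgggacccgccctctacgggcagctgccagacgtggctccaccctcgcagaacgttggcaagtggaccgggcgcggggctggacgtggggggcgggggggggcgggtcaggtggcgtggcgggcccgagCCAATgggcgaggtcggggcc
H2bc14, chr13:21721794-21722093, plus strand: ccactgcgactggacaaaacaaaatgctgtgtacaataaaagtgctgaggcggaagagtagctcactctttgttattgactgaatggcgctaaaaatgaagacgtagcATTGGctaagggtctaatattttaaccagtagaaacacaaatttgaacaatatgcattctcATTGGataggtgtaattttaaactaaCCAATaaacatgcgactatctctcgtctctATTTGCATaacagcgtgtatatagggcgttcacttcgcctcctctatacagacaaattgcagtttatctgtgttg
H4c11, chr13:21734784-21735083, plus strand: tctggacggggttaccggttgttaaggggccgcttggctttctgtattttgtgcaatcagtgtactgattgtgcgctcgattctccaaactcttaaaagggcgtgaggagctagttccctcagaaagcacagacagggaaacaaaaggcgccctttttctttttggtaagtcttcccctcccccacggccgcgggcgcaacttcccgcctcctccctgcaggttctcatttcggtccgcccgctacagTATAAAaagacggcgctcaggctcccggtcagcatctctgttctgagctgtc
H2bc23, chr13:21810150-21810449, minus strand: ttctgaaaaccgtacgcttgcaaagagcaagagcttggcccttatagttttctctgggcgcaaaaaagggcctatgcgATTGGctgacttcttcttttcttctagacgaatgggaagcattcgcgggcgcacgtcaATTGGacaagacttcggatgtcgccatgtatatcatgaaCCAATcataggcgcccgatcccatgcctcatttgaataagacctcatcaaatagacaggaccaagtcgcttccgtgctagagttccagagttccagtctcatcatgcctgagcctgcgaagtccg
H1f1, chr13:23763418-23763717, plus strand: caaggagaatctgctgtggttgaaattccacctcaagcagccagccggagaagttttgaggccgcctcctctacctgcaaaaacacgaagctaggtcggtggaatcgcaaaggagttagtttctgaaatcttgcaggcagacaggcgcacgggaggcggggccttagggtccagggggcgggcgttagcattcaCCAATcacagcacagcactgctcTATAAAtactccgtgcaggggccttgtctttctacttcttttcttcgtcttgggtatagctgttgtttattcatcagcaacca
H2az1, chr3:137864237-137864536, plus strand: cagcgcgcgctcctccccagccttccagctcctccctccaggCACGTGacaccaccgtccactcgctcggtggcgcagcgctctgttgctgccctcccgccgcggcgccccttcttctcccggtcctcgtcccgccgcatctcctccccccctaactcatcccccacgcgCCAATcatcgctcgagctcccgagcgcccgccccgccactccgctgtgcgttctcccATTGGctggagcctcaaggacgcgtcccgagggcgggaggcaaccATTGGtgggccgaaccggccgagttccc
H3f3a, chr1:180813556-180813855, minus strand: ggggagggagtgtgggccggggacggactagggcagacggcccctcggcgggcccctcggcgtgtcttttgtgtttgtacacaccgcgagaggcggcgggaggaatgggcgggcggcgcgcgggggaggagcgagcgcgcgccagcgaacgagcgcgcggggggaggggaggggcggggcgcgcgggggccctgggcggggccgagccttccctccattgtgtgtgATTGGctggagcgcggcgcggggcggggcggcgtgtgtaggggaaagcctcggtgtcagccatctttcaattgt

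Of these, H2az1 alone holds the E-box, 208 bases before its start, together with 3 CCAAT boxes. H2bc14 holds 3 CCAAT boxes and, 25 bases before its start, the octamer known from H2B promoters. Over all histone promoters the E-box was in 1 of 72 (1.39%), the one of H2az1, against 7.84% of the 21263 promoters of protein-coding genes. The CCAAT box was in 59 of 72 histone promoters (81.9%, against 38.2% of all), the TATA box in 36 (50%, against 12.6%) and the octamer in 15 (20.8%, against 1.66%). By family, CCAAT was in 17 of 17 H2B, 12 of 12 H3 and 20 of 21 H2A promoters but in 3 of 12 H4 promoters. The octamer was in 7 H2A and 7 H2B promoters, in 1 H3 promoter and in no H1 or H4 promoter. Some H2A and H2B promoter windows overlap, by 279 bases at H2ac8 and H2bc8, so the same letters can count in both families. Median GC content was 46% for histone promoters and 56.3% for all, and within the histone genes it was 45.2% on chromosome 13, 55.8% on chromosome 3 and 66% at lone genes. A motif match says only that the letters are there. The E-box letters were absent from promoter windows with the highest MYC pileups as well as from those with none, as in H3c14 and H1f1. The windows end 50 bases after the start, and in POH1-Flag cells 41 of 61 summits lay at or after the start. The sequence under the peaks was not read, so absence from a window does not show that a MYC site lacks the E-box.

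MYC peaks lay at most histone genes in both lines. In POH1-Flag cells 67 of 77 had a gene-end MYC peak (87.0%), against 40% of all protein-coding genes. In vector cells 64 of 77 had one (83.1%), against 28.2% of all genes. The Wilson 95% intervals were 77.7% to 92.8% in POH1-Flag cells and 73.2% to 89.9% in vector cells, and they are too narrow because neighbouring genes share peaks. No histone gene had a gene-end Flag peak, against 0.196% of all genes. The share depended on the threshold: with −log10 q of 10 or more it was 58.4% of histone genes in POH1-Flag cells (20.1% of all genes) and 27.3% in vector cells (6.91% of all genes). With fold enrichment of 5 or more it was 44.2% of histone genes in POH1-Flag cells (30.9% of all genes) and 27.3% in vector cells (19.7% of all genes). By position, MYC peaks were at 49 genes of the chromosome 13 cluster in POH1-Flag cells and at 47 in vector cells, of 54. All 10 genes on chromosome 3 had one in both lines, 1 of 2 on chromosome 11 did in both lines, and of the 11 lone genes 7 did in POH1-Flag cells and 6 in vector cells.

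**Figure D1:**
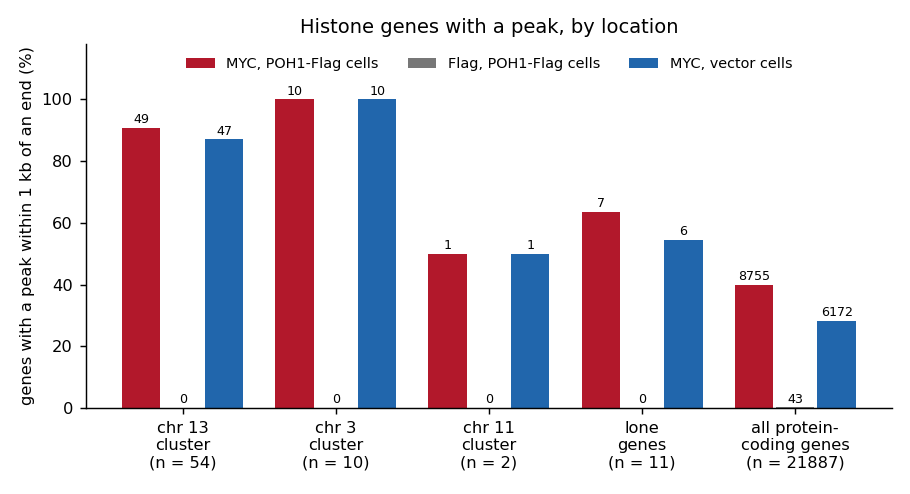
Percent of genes with a peak summit within 1 kb of an end, for each position of the histone genes and for all protein-coding genes, with the number of genes above each bar. Both MYC bars are higher at the chromosome 13 and chromosome 3 clusters than at all genes, and the Flag bar is 0 at every histone position.

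Split by protein, all 13 H4 genes had a MYC peak in POH1-Flag cells and 12 in vector cells. H2A genes had one at 21 of 22 in POH1-Flag cells and 20 of 22 in vector cells, H2B genes at 16 of 18 in POH1-Flag cells and 15 of 18 in vector cells, and H3 genes at 12 of 14 in both lines. Linker histone genes were lower, at 5 of 10 in both lines. None of the 5 genes known from germ cells had a peak in any list. These are H1f6 and H1f7 of the testis, H1f8 of the oocyte, and H2ac1 and H2bc1, the testis H2A and H2B.

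The cluster on chromosome 3 spans 50.3 kb and was covered by few, strong peaks. The highest MYC pileup at any histone gene, 64 reads at the summit in POH1-Flag cells against 53 in vector cells, lay between H2ac18 and H3c14, an H2A and an H3 gene. A near copy of that arrangement, H3c15 and H2ac19, had 63 reads in POH1-Flag cells and 56 in vector cells. Those 2 sites stand above every other histone site in both libraries. The adjacent genes H2ac21, H2ac20 and H2bc21 shared 1 peak of 37 reads in POH1-Flag cells and 32 in vector cells. H4c14 had 35 reads in POH1-Flag cells and 39 in vector cells, and H3c13 and H2bc18 shared a peak of 33 reads in POH1-Flag cells and 25 in vector cells. H4c14 was thus 1 of the few sites where the vector library was the higher one.

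The chromosome 13 genes fall into 4 groups separated by more than 100 kb. The first, chr13:21715711-21837530, holds 18 genes, of which 17 had a MYC peak in both lines. All 5 genes of the second, chr13:22035122-22043658, had one in both lines. The third, chr13:23531044-23764412, holds 29 genes, of which 27 had one in POH1-Flag cells and 25 did in vector cells. The last is the germline pair H2bc1 and H2ac1. The peaks were narrow islands at the genes: they covered 7.0% of the 29-gene group in POH1-Flag cells and 5.98% in vector cells, and 24 of 26 peaks there in POH1-Flag cells and 23 of 24 in vector cells lay at a histone gene end.

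**Figure D2:**
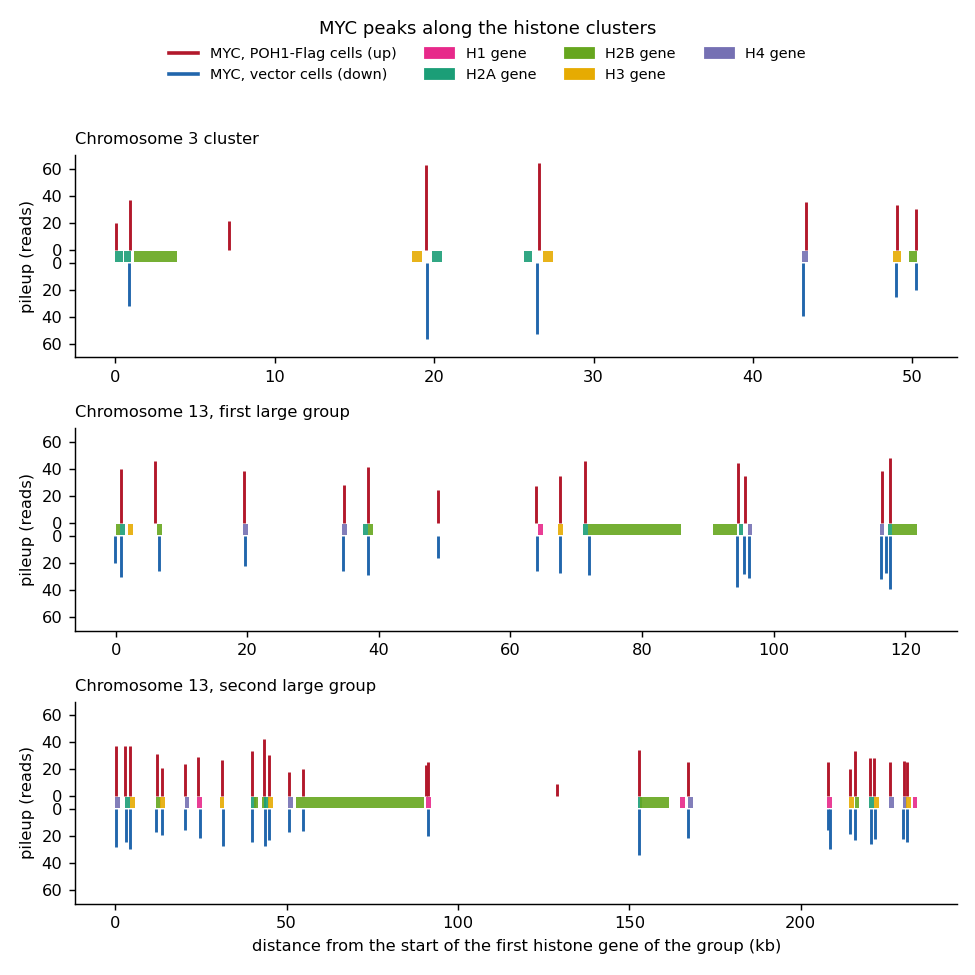
MYC summit pileups (reads, upward for POH1-Flag cells, downward for vector cells) along the chromosome 3 cluster and the 2 larger groups of the chromosome 13 cluster, against distance in kb from the first histone gene, with genes as boxes coloured by family. Most genes with a bar upward also have one downward, with H4c2 (25 reads in POH1-Flag cells, no vector peak) an exception, and the tallest bars, 64 and 63 reads, are on chromosome 3.

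Within the chromosome 13 cluster the highest pileups were at H2A and H2B genes. The site of H2ac24 and H4bc24 (older name Hist1h2br, an H2B gene) had 48 reads in POH1-Flag cells and 39 in vector cells. H2bc14 had 46 in POH1-Flag cells and 26 in vector cells, and the pair H2ac22 and H2bc22 had 46 in POH1-Flag cells and 29 in vector cells. The pair H2ac12 and H2bc12 had 46 in POH1-Flag cells and 27 in vector cells. At the low end H4c4 had 18 reads in POH1-Flag cells and 17 in vector cells, and H3c3 had 20 in POH1-Flag cells and 18 in vector cells. The family order was alike in both lines at shared sites: the median was 40.5 reads for H2A and 40 for H2B in POH1-Flag cells (29 for each in vector cells), and 31.5 for H3, 31 for H4 and 25 for H1 in POH1-Flag cells (25.5 for H3, 25 for H4 and 21 for H1 in vector cells).

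Many peaks belonged to more than 1 histone gene. The 67 genes in POH1-Flag cells shared 55 distinct peaks, of which 24 lay near 2 histone genes and 1 near 3, and the 64 genes in vector cells shared 54, of which 19 lay near 2 and 3 near 3. In 10 places an H2A and an H2B gene pointed away from each other with overlapping promoter windows. In every such pair except the germline pair a MYC site found in both lines lay near both genes, as at H2ac15 and H2bc15 with 41 reads in POH1-Flag cells and 29 in vector cells. At H2bc13 and H2ac13, H2bc23 and H2ac23, and H2ac24 and H4bc24 the vector list held a second peak near both genes. Genes that share a site are not separate measurements. Summits lay close to the genes: the median distance to the nearer gene end was 206 bp in POH1-Flag cells and 179.5 bp in vector cells. Relative to the transcription start, 34 of 61 genes in POH1-Flag cells and 27 of 58 in vector cells had the summit within 250 bp, and more summits lay at or after the start (41 in POH1-Flag cells, 39 in vector cells) than before it (20 in POH1-Flag cells, 19 in vector cells).

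Among the lone genes, the H2A.Z gene H2az1 had 46 reads in POH1-Flag cells and 25 in vector cells. H2ax, whose protein is phosphorylated at DNA breaks, had 43 in POH1-Flag cells and 28 in vector cells, at a site it shares with Dpagt1. H3f3a, which encodes an H3 variant that is placed also outside S phase, had 38 in POH1-Flag cells and 20 in vector cells. The libraries thus differed by most reads at H2az1, H3f3a and H2ax among the lone genes. H2az2, the other H2A.Z gene, had 25 reads in POH1-Flag cells and 17 in vector cells, and the single H4 gene H4f16 had 24 in POH1-Flag cells and 13 in vector cells. H1f0, the linker histone of resting and differentiated cells, had 20 reads in POH1-Flag cells and 13 in vector cells, but this site lies past its far end, 2729 bp from its start in POH1-Flag cells and 2873 bp in vector cells, and is also within 1 kb of Gcat. Nearer its start, at 296 bp, H1f0 had a second peak of 14 reads in POH1-Flag cells and none in vector cells. On chromosome 11, H2aw had 23 reads in POH1-Flag cells and 14 in vector cells, at a site also near Trim17, while its neighbour H2bu2 had no peak, the nearest summit being 5332 bp away in POH1-Flag cells and 5262 bp in vector cells.

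The 10 genes without a peak in any list were H1f10, H1f8, H2bu2, H3f3b, H3c10, H1f6, H1f1, H2bc1, H2ac1 and H1f7. Several were near misses of the 1 kb limit. H3c10 lay 1083 bp from the peak of H2bc13 and H2ac13 in POH1-Flag cells and 1076 bp in vector cells. H3f3b, the second gene of the H3f3a protein, had a peak inside the gene, of 27 reads 1454 bp from its nearer end in POH1-Flag cells and of 20 reads at 1477 bp in vector cells. The promoter table puts a start of H3f3b 81 bp from that summit in POH1-Flag cells and 58 bp in vector cells, so counted by start this gene had a peak. H1f1, the H1 gene at the edge of the 29-gene group, was 1588 bp from the peak of H4c1 and H3c1 in POH1-Flag cells and 1535 bp in vector cells, and H1f6 was 1737 bp from that of H4c3 in POH1-Flag cells and 1677 bp in vector cells. H1f10, H1f8, H1f7, H2bc1 and H2ac1 were farther from MYC summits, the closest being 63667 bp from H1f10 in POH1-Flag cells. Counted by transcription start, 62 of 71 genes had a MYC peak in POH1-Flag cells and 59 of 71 in vector cells.

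Read density around the histone sites was high beyond the summit itself. The strongest gene-end peak had a median pileup of 35 reads over histone genes in POH1-Flag cells, against 21 over all genes, and 27 in vector cells, against 15. The local background that the peak caller used, which counts the reads of the 10 kb around the summit, was higher as well, with a median of 324 reads at histone genes in POH1-Flag cells, against 141 at all genes with a site in both lines, and 221.5 reads in vector cells, against 83. As multiples of the library-wide background these are 7.92 at histone genes in POH1-Flag cells, against 3.45 at all such genes, and 5.74 in vector cells, against 2.15. The authors' fold enrichment divides by that local background and was lower at histone genes than at all genes, with medians in POH1-Flag cells of 5.03 at histone genes and 6.25 at all genes, and in vector cells of 4.76 at histone genes and 5.65 at all genes. The order of histone genes against all genes thus depends on which measure of a peak is read. Windows of clustered genes overlap and hold neighbouring peaks. The lone genes stood between, at 5.59 in POH1-Flag cells and 3.32 in vector cells.

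**Figure D3:**
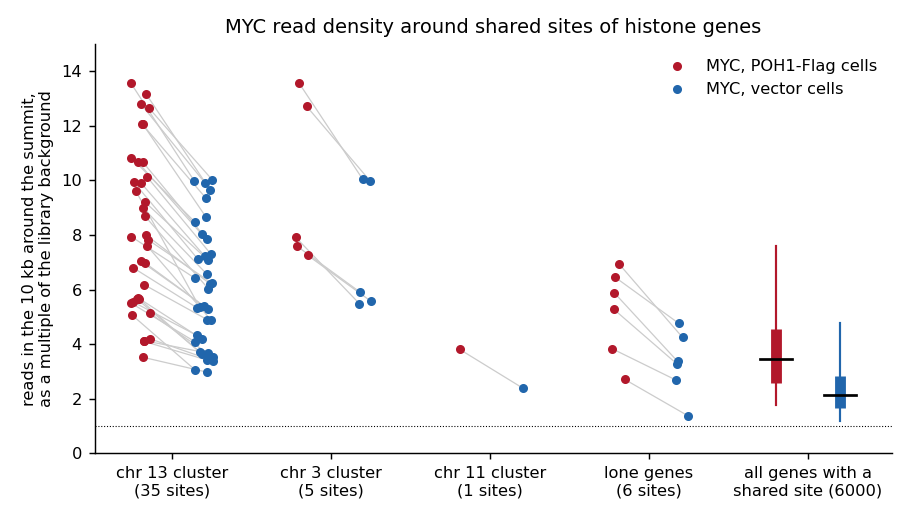
Reads in the 10 kb around each site found in both MYC lists, as multiples of the library-wide background (dotted line at 1), with lines joining the libraries of a site; for all genes the bar spans the middle 50% of genes, the thin line 5% to 95% and the tick the median. Most cluster sites lie above the medians of all genes, 3.45 in POH1-Flag cells and 2.15 in vector cells.

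Peaks found in 1 line only were few. Of the 13 histone genes without a vector MYC peak, 3 had one in POH1-Flag cells (17.2% of all genes without a vector peak did). H4c2, an H4 gene, had 25 reads in POH1-Flag cells, and the nearest vector summit was 3617 bp away. Macroh2a1, the gene of a variant with a large extra domain, had 14 reads in POH1-Flag cells, and the nearest vector summit was 314400 bp away. H2bc6 had 23 reads in POH1-Flag cells and no vector peak within 1 kb of its annotated ends, but it is annotated over 37455 bp and a vector peak of 16 reads lay 243 bp from a start in the promoter table. No histone gene had a MYC peak in vector cells only, against 0.937% of all genes without a POH1-Flag peak. These counts depend on the lists. With −log10 q of 10 or more, 24 of 56 histone genes without a vector peak at that threshold had one in POH1-Flag cells (42.9%), against 14.3% of all such genes. Most of those 56 had a vector peak below the threshold, since 13 histone genes lacked one in the full list. Of the 20375 such genes among all genes, 13009 had no MYC peak in either full list. These percentages therefore compare unlike sets. The POH1-Flag list was also shortened to the length of the vector list. Then 2 of 13 histone genes without a vector peak had one in POH1-Flag cells (15.4%), against 8.67% of all such genes. Of those without a POH1-Flag peak, 3 of 14 had one in vector cells (21.4%), against 4.17% of all such genes. The genes with a peak numbered 63 of 77 in POH1-Flag cells and 64 of 77 in vector cells (31.6% of all genes in POH1-Flag cells, 28.2% in vector cells).

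At the 64 histone genes with a shared site, where a peak of one MYC list overlapped a peak of the other, pileups were compared after division by each library's background. POH1-Flag cells had the higher value at 62 of 64, against 98.4% of all genes with a shared site. The median ratio of POH1-Flag over vector cells was 1.29 at histone genes (0.37 on the log2 scale) and 1.65 at all 6000 such genes (0.72 on the log2 scale). A ratio of at least 1.5 was reached by 18 of 64 histone genes (28.1%), against 66% of all. The counting interval lay above 1 at 7 of 64 (10.9%), against 25.8% of all. The histone genes thus had higher pileups than all genes in both lines and a smaller ratio between the lines, with no replicate to set this against. Relative to the median of all shared sites, the histone median was -0.34 on the log2 scale. Scaled by background reads per kb in place of the background pileup, 10 of 64 histone genes reached 1.5. The median of all shared sites then fell as well, from 0.71 to 0.59 on the log2 scale. The share of all genes that reached 1.5 was not counted for that scaling.

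**Figure D4:**
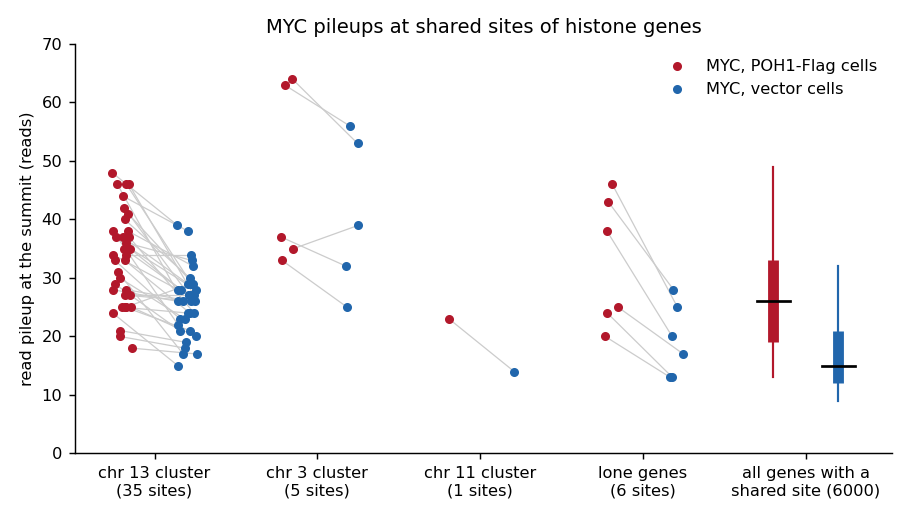
Summit pileup in reads at each shared site of the histone genes, with lines joining the MYC libraries of a site, by position; for all genes the bar spans the middle 50%, the thin line 5% to 95% and the tick the median. The vector values of the lone sites (13 to 28 reads, median 18.5) overlap those of the chromosome 3 sites (25 to 56 reads, median 39).

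By position, the median ratio was 1.28 on chromosome 13 (47 genes), 1.18 on chromosome 3 (10 genes) and 1.73 at lone genes (6 genes), and 1.68 at H2aw on chromosome 11. All 6 lone genes reached 1.5, as did H2aw, against 11 of 47 on chromosome 13 and 0 of 10 on chromosome 3. Of all genes with a shared site, 66% reached it. Relative to the median of all shared sites, the lone median was 0.073 on the log2 scale. The highest ratios were at H3f3a (1.94, 95% interval 1.10 to 3.53), H4f16 (1.89, 0.924 to 4.04), H2az1 (1.88, 1.13 to 3.20), H2bc9 (1.87, just above 1 to 3.59) and H2bc14 (1.81, 1.10 to 3.05). The intervals of H4c11 and of the pair H2ac12 and H2bc12 also lay above 1. At H2bc14 the POH1-Flag and vector summits lay 695 bp apart and at H2bc9 311 bp apart, in overlapping peaks. At H3f3a, H4f16 and H2az1 they lay 2, 200 and 4 bp apart. Ratios below 1 were computed at H4c14 (0.918, 0.565 to 1.49) and at H1f2, an H1 gene with 25 reads in POH1-Flag cells and 29 in vector cells (0.882, 0.495 to 1.56). At H1f2 those summits lie 670 bp apart, and another vector peak, of 15 reads, has its summit 60 bp from the POH1-Flag summit, so the direction there depends on which vector peak is taken. H3c6 with 27 reads in each library and the site of H2ac6 and H2bc4 with 34 in each had a ratio of 1.02. Intervals of cluster and lone genes overlap widely, so single sites are not told apart by these counts.

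**Figure D5:**
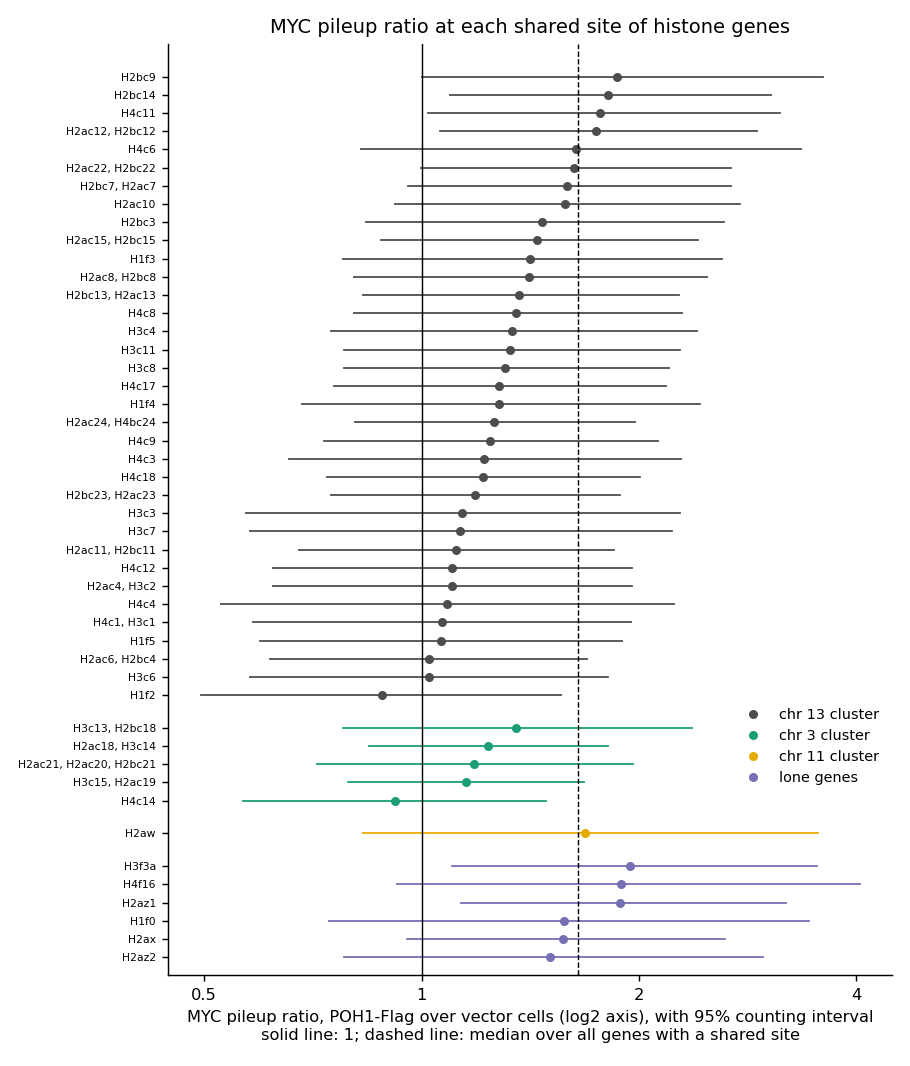
Ratio of MYC pileups, POH1-Flag over vector cells, with its 95% counting interval for each of the 47 shared sites, on a log2 axis, with the solid line at 1 and the dashed line at the median of all genes, 1.65. The points of all 5 chromosome 3 sites lie left of the dashed line, as do those of the lone genes H2ax, H2az2 and H1f0, and those of H3f3a, H4f16, H2az1, H2bc9, H2bc14, H4c11 and the pair H2ac12 and H2bc12 lie right of it.

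The ratio was also read by vector pileup, which is the denominator of the ratio. Among genes with at least 20 vector reads at the shared site, the median ratio was 1.28 at histone genes (55 genes) and 1.51 at all genes (1765). Below 20 vector reads it was 1.57 at histone genes (9 genes) and 1.72 at all genes (4235). The 9 histone values have a median with an interval of 1.13 to 1.87, which holds the median of all genes in that range. The reads of the 10 kb around the sites also had a lower median ratio at histone genes, 1.35, than at all genes, 1.59. The share of genes whose interval lay above 1 ran the other way from that of the pileups: it was 60 of 64 histone genes (93.8%), against 83.6% of all genes, with more reads per window at histone genes. By position the window ratio was 1.33 on both chromosome 13 and chromosome 3, and 1.63 at lone genes.

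Some histone genes are near-identical copies, and the sources used here do not say how reads with several equal matches were placed. The promoter of H2bc23 printed above is identical over all 300 bases to that of H4bc24, and those of H4c17 and H4c18 share a run of 285 bases. In all, 10 genes had a promoter with at least 100 bases in a row identical to another, among them H3c15 and H3c14 (231 bases) and H2ac19 and H2ac18 (219 bases), which stand beside the highest pileups. Values at these genes cannot be assigned to 1 copy. Without those 10 genes the median log2 ratio was 0.43.

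The Flag library had no peak near these genes. The nearest Flag summit to any histone gene was 170000 bp away, at H2ac1, and the median distance was 509348 bp, against 435464 bp over all genes. The Flag list is short, so a weaker signal below its threshold was not detectable here.

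Genes that regulate, process and deposit histones were also counted, from a list of 32 of which 31 matched the table. MYC peaks were at 30 of 31 in POH1-Flag cells (40% of all genes) and 24 of 31 in vector cells (28.2% of all genes), and a Flag peak was at 1 (0.196% of all genes), Anp32e, which encodes an H2A.Z chaperone. That Flag peak had 9 reads, 866 bp from the gene end, where the Flag list had a median of 15 reads and a lowest of 7. The listed genes had a median log2 ratio of 0.83 over 24 shared sites, against 0.37 at the histone genes and 0.72 at all genes. Npat, the organiser of histone locus bodies, had 30 reads in POH1-Flag cells and 19 in vector cells. Hinfp, a factor of H4 promoters, had 27 in POH1-Flag cells and 12 in vector cells (ratio 2.30, 1.13 to 4.99). Slbp, whose protein binds the stem-loop, had 32 in POH1-Flag cells and 24 in vector cells, and Casp8ap2 had 21 in POH1-Flag cells and no vector peak. All 9 matched transcription and processing factors had a peak in POH1-Flag cells. In vector cells 2 of 3 transcription factors and 4 of 6 processing factors did. The highest pileups were at the centromeric chaperone gene Hjurp (46 reads in POH1-Flag cells, 28 in vector cells) and the remodeller genes Srcap and Ino80 (44 in POH1-Flag cells and 27 in vector cells at each). Then came Rbbp4 (40 in POH1-Flag cells, 26 in vector cells), Asf1b (39 in POH1-Flag cells, 20 in vector cells) and Daxx (38 in POH1-Flag cells), which encode chaperones or their subunits. The shared site of Daxx had 37 reads in POH1-Flag cells and 20 in vector cells. The highest ratios were at the chaperone genes Nap1l1 (2.56, 1.19 to 5.97) and Supt16 (2.43, 1.02 to 6.42), and the lowest at Zfp473 (1.07), which acts in histone message processing, Asf1a (1.14) and Slbp (1.36). Atrx, the remodeller that works with Daxx, had no peak in any list.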

How the data were processed

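CUT&Tag peak lists of the 3 libraries were used, 1 per group by sample title. Tools listed in the submitters' processing notes, without roles or parameters, are MACS2 2.2.7.1, BWA 0.7.17-r1188, Trim Galore 0.6.6 and FastQC 0.11.9, and the builds are GRCm38 and mm10. Any control library, blacklist, or handling of duplicate or multiply matching reads is not given in the sources used here. The deposited lists hold, per peak, a score, a fold enrichment (a linear ratio), −log10 p, −log10 q and a summit offset in bp. The lowest deposited −log10 q was 1.30, 1.36 and 1.30 (MYC in POH1-Flag cells, Flag, MYC in vector cells).

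The summit pileup and local background of each peak were solved from the deposited fold and −log10 p, giving whole reads for 100% of peaks within 0.01 of a read. The local background gave whole reads in 10 kb within 0.05 of a read. The lowest local background was taken as the library-wide one. Shared sites were MYC peaks overlapping by at least 1 bp that were each other's highest partner. Ratios have exact conditional Poisson 95% intervals, counting error only, too narrow if PCR duplicates were kept. With 1 library per group no test was run. Genes and promoters came from RefSeq GRCm38.p6 tables, and families were assigned by older symbols (H4bc24 as H2B). Named were all lone genes, small groups in full, the highest pileups per cluster, the extreme ratios, and genes with a peak in 1 line or none. Members, lists and naming were chosen with earlier results of these data known. Steps were tested on simulated data (Python 3.11.15, NumPy 2.4.6, SciPy 1.17.1, pandas 2.3.3, matplotlib 3.10.9). Alternatives were stricter peak thresholds, other distances, equal list lengths, other scalings and overlap rules.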

Additional observations from a re-analysis of the deposited data

How the results depend on the processing

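Of 186 alternative values over 20 results, 148 stayed within the counting error or 1.5 times the value reported, 35 moved and 3 turned round. At a −log10 q of at least 10 the share of histone genes with a MYC peak was 58.4% in POH1-Flag cells and 27.3% in vector cells (all genes 20.1% in POH1-Flag cells and 6.91% in vector cells), on chromosome 13 57.4% in POH1-Flag cells and 20.4% in vector cells, on chromosome 11 0% in both lines, and at lone genes in vector cells 18.2%. At a fold of at least 5 it was 44.2% in POH1-Flag cells and 27.3% in vector cells (all genes 30.9% in POH1-Flag cells and 19.7% in vector cells), on chromosome 13 35.2% in POH1-Flag cells and 16.7% in vector cells, and on chromosome 11 in vector cells 0%. With −log10 q at 5 or more it was 70.1% in vector cells and 72.2% on chromosome 13 in vector cells (all genes 18.9% in vector cells). Within 5 kb it was 90.9% in vector cells, and on chromosome 13 96.3% in both lines (all genes 49.4% in POH1-Flag cells and 35.6% in vector cells). Within 2 kb, chromosome 13 had 96.3% in POH1-Flag cells and 94.4% in vector cells (all genes 43.5% in POH1-Flag cells and 30.8% in vector cells). Histone genes peaked in POH1-Flag cells alone numbered 12, 24 and 13 at those 3 thresholds (−log10 q of 5, of 10, fold of 5), which is 52.2%, 42.9% and 23.2% of those without a vector peak, against 19.1%, 14.3% and 15.3% of all such genes. Genes without a vector peak at a threshold include those whose vector peak fell below it. Within 500 bp, 5 of 15 histone genes without a vector peak had one in POH1-Flag cells (33.3%, against 15.96% of all such genes). Within 5 kb, 1 of 7 did (14.3%, against 22.5% of all such genes). Of histone genes without a POH1-Flag peak, 1 of 12 had one in vector cells at a −log10 q of 5 (8.33%, against 0.595%). With lists of equal length 3 of 14 did (21.4%, against 4.17%). Only the share within 5 kb was below that of all genes here. The median log2 ratio at a −log10 q of at least 10 was 0.24 over all histone genes and 0.16 on chromosome 13. With pileups scaled by background reads per kb, which put the median of all sites at 0.59 in place of 0.71, it was 0.25 over all, 0.24 on chromosome 13 and 0.13 on chromosome 3, and 10 genes reached 1.5. Centred on all shared sites it was -0.34 over all, -0.36 on chromosome 13, -0.47 on chromosome 3 and 0.073 at lone genes, with 0 genes at 1.5. The share of all genes that reached 1.5 was not counted for either of these scalings. Centring turns the sign by its construction, since it subtracts the median of all sites, and the cause of the other moves was not tested. Distance to the transcription start had a median of 288.5 bp in vector cells. The 10 kb reads and the removal of near-identical copies were chosen after seeing the data. Leaving out a replicate could not be done, with 1 library each. No paired analysis was possible because each group had 1 library. Pileups of 13 to 64 reads limit each ratio.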

Other observations

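Of 6 histone genes that the naming rule left out, 2 had a MYC peak in POH1-Flag cells (40% of all genes did) and none in vector cells (28.2% of all genes did). H2aj had a MYC peak of 19 reads in POH1-Flag cells and Cenpa, the centromeric H3 variant, one of 10 reads, with none in vector cells. Macroh2a2, H2ab2, H2ab3 and H3f3c had no peak in any list. Inside the cluster spans a few peaks lay at no histone gene end. On chromosome 3 a peak of 21 reads in POH1-Flag cells, 7.16 kb from the first gene, had no partner in vector cells. In the 18-gene group of chromosome 13 a peak 49.0 kb from the first gene had 24 reads in POH1-Flag cells and 16 in vector cells. In the 29-gene group a peak at 54.9 kb had 20 reads in POH1-Flag cells, and its counterpart at 54.7 kb had 16 in vector cells; both lie inside the 37455 bp over which H2bc6 is annotated.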
